A study of Mus musculus with 15 samples.

Results

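Long internal exons are exons of over 1000 nt that lie between the first and the last exon of a transcript. They were taken from the autosomal protein-coding transcripts of 20722 genes in GENCODE release M21 on the mouse genome mm10, which together have 172815 distinct internal exons. Of these, 1283 were longer than 1000 nt, and keeping the longest of overlapping exons left 1225 long exons in 1121 genes. The comparison group was 89669 internal exons of 100 to 200 nt, of 92411 distinct ones, treated the same way. No coverage value was used to choose either group. The flank of an exon was up to 1 kb of intron on each of its sides.

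DNA of mouse embryonic stem cells of the line E14TG2a was profiled at single-CG resolution by hmTOP-seq, which attaches an azide-bearing glucose to 5-hydroxymethylcytosine (5hmC) with the enzyme BGT and starts sequencing reads at the tagged cytosine. Libraries were made in duplicate from 500, 50 and 5 ng of DNA, and each input had 2 control libraries made without the BGT step. uTOP-seq, which tags unmodified CGs instead, was run on 300 ng in 3 replicates. The replicates of an input are technical repeats, so every p-value below measures technical spread and not variation between cultures. All samples share 1 cell line, and the labels name no treatment.

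5hmC is made when TET enzymes oxidise 5-methylcytosine, and in embryonic stem cells it is found in gene bodies, at enhancers and around the edges of CG-rich promoters. CG dinucleotides are rare in most of the mouse genome and denser in exons than in introns. Most internal exons of vertebrates are short, and the few that are very long often encode repeats or unstructured stretches of large proteins, or arrays of zinc fingers.

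The sequences below show the CG with the highest mean 500-ng read count within the coding part of 6 long exons, on the strand of the gene and with that CG in capitals. The first 3 are the exons with the highest coverage, and the others are exons of giant proteins with many CGs. Each window spans 80 bases of the build mm10 (GRCm38) and lies inside coding sequence. Slc25a42, a mitochondrial carrier of coenzyme A, is shown at chr8:70186669-70186748 on the minus strand, where its CG had 46 and 34 reads in the 500-ng replicates. Zbtb4, a zinc finger protein that binds methylated DNA, is shown at chr11:69776450-69776529 on the plus strand, with 44 and 42 reads. Smpd3, a neutral sphingomyelinase, is shown at chr8:106265097-106265176 on the minus strand, with 74 and 50 reads. Ttn encodes the giant muscle protein titin and is shown at chr2:76742472-76742551 on the minus strand, where the best-covered CG of the longest exon had 13 and 3 reads. Bsn encodes bassoon, a scaffold of the presynaptic active zone, and is shown at chr9:108114751-108114830 on the minus strand, with 63 and 69 reads. Ank3, or ankyrin G, is shown at chr10:69989477-69989556 on the plus strand, with 30 and 18 reads.
Slc25a42: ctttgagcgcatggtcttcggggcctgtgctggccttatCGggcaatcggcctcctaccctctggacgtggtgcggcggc
Zbtb4: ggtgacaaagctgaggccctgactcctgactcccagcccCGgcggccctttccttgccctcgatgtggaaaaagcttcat
Smpd3: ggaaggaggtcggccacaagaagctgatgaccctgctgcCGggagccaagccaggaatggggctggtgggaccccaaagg
Ttn: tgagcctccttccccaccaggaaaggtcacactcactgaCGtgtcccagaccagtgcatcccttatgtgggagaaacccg
Bsn: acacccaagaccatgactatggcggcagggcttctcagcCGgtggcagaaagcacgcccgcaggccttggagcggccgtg
Ank3: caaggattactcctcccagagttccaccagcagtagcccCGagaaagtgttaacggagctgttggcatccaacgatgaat

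The hmTOP-seq counts cover 21353092 CGs, of which 20383623 are autosomal. The uTOP-seq counts hold 17155987 entries, each listed with a strand, and entries of the same CG were summed. Means of every library were taken over the 20383623 autosomal CGs, so that CGs absent from the uTOP-seq counts entered without a read. Total reads were 32502791 and 31918445 for the 500-ng libraries. They came to 23027170 and 22052535 for the 50-ng libraries, and to 14884939 and 15277636 for those of 5 ng. The uTOP-seq libraries had 28412885, 23078739 and 20120568 reads. Control libraries were far smaller, with between 3409 and 10072 reads each. Coverage is given as relative coverage, the reads per CG of a region divided by the library's mean reads per autosomal CG, so that 1 is the autosomal average. That average, in reads per CG, stood at 1.58 and 1.55 for the 500-ng replicates, 1.12 and 1.07 for the 50-ng ones, and 0.722 and 0.741 for the 5-ng ones. The reads carry no molecular identifiers, so intervals and floors given here cover counting error only.

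The long exons had a median length of 1511 nt, with quartiles at 1191 and 2106 nt, and the longest spanned 17106 nt. Together they hold 57564 CGs, a median of 36 per exon, and 986 exons held 20 or more. The exons had 2.44 CGs per 100 nt, close to the 2.66 of the short exons, while the flanks of long exons had 0.944. One property of coding exons that the choice did not use is reading-frame symmetry: 38.0% of long exons and 38.7% of short exons had a length divisible by 3. Among the 1225 exons, 433 were the second exon of their transcript. In all, 668 overlapped a first or last exon or an untranslated region of some transcript, and 557 were coding and internal throughout. An annotated intron of another transcript lay within 50 of them.

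5hmC coverage was higher inside long exons than in the introns beside them in all 6 labelled libraries. At 500 ng the relative coverage of long exons was 2.73 and 2.66 in the 2 replicates, against 1.44 and 1.43 in their flanks. With 50 ng it was 2.49 and 2.46 in the exons and 1.44 and 1.47 in the flanks. With 5 ng the exons had 2.28 and 2.26 and the flanks 1.40 and 1.44. No flank value of a labelled library reached the exon value of any labelled library. Exon over flank was 1.88-fold for 500 ng, 1.70-fold for 50 ng and 1.601-fold for 5 ng. On the log2 scale the mean over the 6 libraries was 0.79 ± 0.11 (SD, n = 6; two-sided exact sign-flip permutation test, p = 0.03125, the smallest that 6 libraries can give). Exons lay above flanks on 19 of 19 autosomes at 500 ng, with log2 ratios from 0.49 to 1.35. Counted only as CGs with a read or without, the log2 ratio at 500 ng was 0.44 instead of 0.91.

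**Figure D1:**
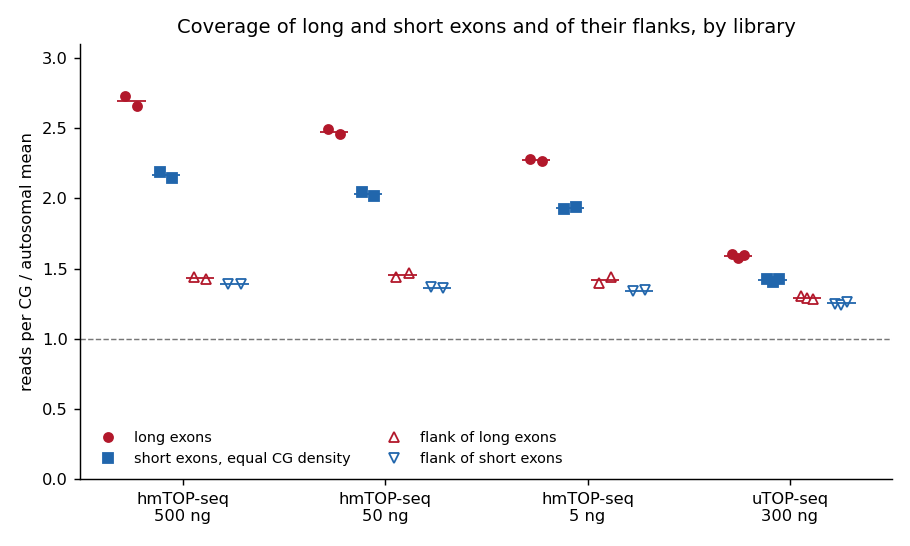
Relative coverage (reads per CG divided by the autosomal mean, vertical axis) of long exons, short exons at equal CG density and the flanks of both, for each library by assay and DNA input. Points are libraries and short lines are group means; long exons stand highest in every group, at 2.70 for 500 ng and 1.59 for uTOP-seq, and the dashed line marks 1.

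Long exons also carried more 5hmC coverage than short exons with the same CG density. After the short exons were weighted to the long exons' CG densities, their relative coverage was 2.17 ± 0.0301 at 500 ng against 2.70 ± 0.0520 for the long exons (SD, n = 2 each). The short value was 2.03 for the 50-ng and 1.93 for the 5-ng libraries, against 2.48 and 2.27 for the long exons. Long exons were thus 1.24-fold, 1.22-fold and 1.17-fold above short exons at the 3 inputs. The log2 ratio was above 0 in 6 of 6 libraries with a mean of 0.28 ± 0.04 (SD; two-sided exact sign-flip permutation, p = 0.03125, the smallest possible). At 500 ng it was above 0 on 19 of 19 autosomes, from 0.08 to 0.70. A median over exons with 10 or more CGs gave a log2 value of -0.93 (exact sign-flip permutation, p = 0.125), but short exons meet that limit only at high CG density, so this median covers 90 long and 2917 short exons of 5 or more CGs per 100 nt. With short exons of 3 or more CGs admitted, chosen after the data were seen, the median gave 0.88. Long exons kept the limit of 10 CGs there, so the limits of the exon classes were unlike. No ratio could be formed in every labelled library, so this value has no test. The pooled ratio was 0.12 when CGs were matched on the number of neighbours within a 180-bp window or counted only as read or unread, and 0.14 without matching, and stayed past the threshold in these 3 settings.

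The flanks of the exon classes differed less than the exons. Flank coverage at 500 ng was 1.43 ± 0.00686 for long exons and 1.39 ± 0.00186 for short ones at matched density (SD, n = 2). The rise from flank to exon was therefore larger at long exons, by 0.27 on the log2 scale with 500 ng of DNA, by 0.19 with 50 ng and by 0.15 with 5 ng. It was above 0 in 6 of 6 libraries (mean 0.21 ± 0.06 SD, two-sided exact sign-flip permutation p = 0.03125). This difference is small and depends on the matching and on how reads are counted. It was 0.10 with CGs counted only as read or unread. It was 0.08 with p = 0.1875 when matched on neighbouring CGs within the window, 0.11 with p = 0.0625 without matching, and 0.14 with p = 0.09375 against short exons of the same genes (all exact permutation). It was larger, at 0.33, with the flank weighted to the exon's CG number within the window, and 0.30 with only the first 300 nt of flank. The median over CG-dense exons alone was -0.84, and 0.67 with short exons of 3 or more CGs admitted (each with exact permutation p = 0.03125). In uTOP-seq the rise was also larger at long exons, by 0.116 in 3 of 3 libraries (exact sign-flip permutation p = 0.25, the smallest possible). Its libraries, at 0.110, 0.107 and 0.133, overlapped those of 5 ng, at 0.178 and 0.127.

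The unmodified-CG signal was also higher in exon than flank, by less, and only while the lower CG density of flanks was left as it is. uTOP-seq coverage of long exons was 1.603, 1.58 and 1.59 in the 3 replicates, and 1.30, 1.29 and 1.29 in their flanks. The exon over flank ratio was 1.23-fold, and long over short exons was 1.12-fold (above 0 on the log2 scale in 3 of 3 libraries, exact sign-flip permutation p = 0.25, the smallest that 3 libraries allow). With the flank weighted to the exon's CG number within the 180-bp window, the uTOP-seq log2 ratio of exon over flank went from 0.30 to -0.09 and lay below 0 in each replicate, while that of the 500-ng libraries went from 0.91 to 0.71. Without that weighting hmTOP-seq exceeded uTOP-seq by 0.49 on the log2 scale for exon over flank and by 0.11 for long over short exons. In both cases the 6 hmTOP-seq values all lay above the 3 uTOP-seq values (two-sided exact permutation, p = 0.0119, the smallest possible with 6 against 3).

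Lower DNA input went with a smaller exon-flank difference. The log2 ratio at long exons was 0.93 and 0.90 in the 500-ng libraries. It was 0.79 and 0.74 in the 50-ng pair and 0.70 and 0.66 in the 5-ng pair, without overlap between inputs. With the flank weighted to the exon's CG number within the window, the ratios were 0.71 and 0.70, then 0.63 and 0.57, and at 5 ng 0.62 and 0.49, so that the pairs of 50 and 5 ng overlapped. The gap between 500 and 5 ng was 0.23 and that between 500 and 50 ng 0.14, and 2 libraries against 2 cannot give an exact permutation p under 0.333. Depth fell with input too: 61.1% and 62.2% of the long-exon CGs had a read in the 500-ng libraries, 39.4% and 41.2% in the 50-ng ones, and 14.4% and 13.98% in the 5-ng ones. Per-CG counts of the replicates correlated over these 57564 CGs with Pearson's r of 0.825, 0.501 and 0.122, a description over sites that share each library's depth. The part of depth in the trend was not tested.

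In the control libraries the same exons took a smaller share of a very small number of reads. The 500-ng controls had 85 of 19171 autosomal reads in long exons, or 0.443% (95% exact binomial interval 0.354 to 0.548), and the labelled 500-ng libraries 0.761%. The 50-ng controls had 22 of 6774 reads (0.325%, 0.204 to 0.491) against 0.699%. The 5-ng controls had 3 of 8436 (0.0356%, 0.00733 to 0.104) against 0.642%. The exons hold 0.282% of autosomal CGs. That share lies within the 50-ng control interval, under the 500-ng one and above the 5-ng one. The intervals treat reads as independent, yet many control reads shared a CG. In the 5-ng controls, 3713 and 4723 autosomal reads fell on only 466 and 484 CGs. The 50-ng controls had 1108 and 1121 CGs with a read, the 500-ng controls 6467 and 6214. The intervals are therefore too narrow, most of all for 5 ng, and the position of the CG share decides nothing.

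CG density separated long exons into groups that differed from short exons in opposite directions. Between 1 and 5 CGs per 100 nt, where 980 of the 1225 long exons lie, coverage at 500 ng was 2.95 ± 0.0502 in long and 2.03 ± 0.0174 in short exons (SD, n = 2), a 1.46-fold difference. The log2 ratio was above 0 in all 6 labelled libraries, from 0.43 to 0.55. The 458 coding-only exons among them gave 1.44-fold. With 6 or more CGs per 100 nt the order turned: 62 long exons had 1.53 ± 0.0493 and short exons 3.05 ± 0.101, a ratio of 0.502, with the log2 value below 0 in all 6 libraries. Between 5 and 6, 28 long exons stood at 3.75 and short exons at 3.64, a difference seen in 4 of 6 libraries only. Below 1 CG per 100 nt, 155 long exons reached 0.628 and short exons 0.772.

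The peak of 5hmC lay at different densities in the exon classes. Long exons rose from 0.628 under 1 CG per 100 nt through 2.51 at 2 to 3 and 4.06 at 3 to 4, to 4.44 at 4 to 5 CGs per 100 nt. They then fell to 2.65 at 6 to 7. Short exons went on rising to 4.12 at 6 to 7 and were still at 3.11 at 8 to 9, where long exons stood at 1.04. The bins from 7 up hold 8, 12, 10 and 9 long exons and rest on few genes. Excluding exons that overlap an end exon or untranslated region leaves 12 coding exons with 6 or more CGs per 100 nt, at 2.90 against 3.61 for short exons, a ratio of 0.803.

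**Figure D2:**
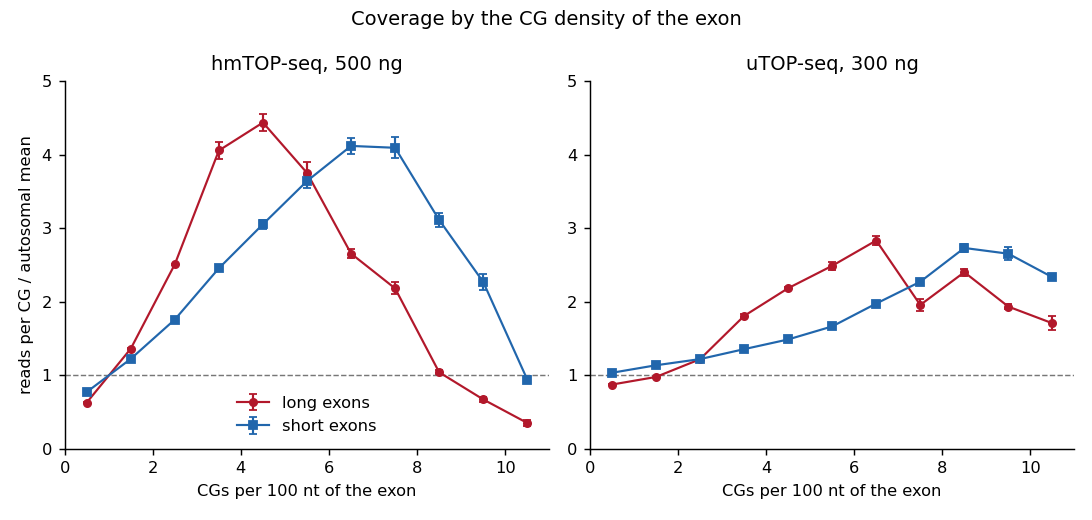
Relative coverage (reads per CG divided by the autosomal mean, vertical axis) against CGs per 100 nt of the exon (the last point holds 10 and above) for long and short internal exons, in the 500-ng hmTOP-seq libraries (left) and uTOP-seq (right). Points are means and bars SDs of 2 and 3 replicates; at 500 ng long exons peak at 4.44 and short exons at 4.12, and the last 4 long-exon points rest on 8 to 12 exons each.

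In uTOP-seq long exons lay below short ones at low density and again in the densest bins. Long over short exons was 0.845-fold under 1 CG per 100 nt, 0.8601 at 1 to 2, 0.999 at 2 to 3, 1.33 at 3 to 4 and 1.47 at 4 to 5, or 1.15-fold over the bins from 1 to 5. It was 1.495-fold at 5 to 6 and 0.976-fold at 6 and above. That last group joins 1.43-fold at 6 to 7 with 0.861, 0.879, 0.729 and 0.731 in the bins of few exons from 7 up, each below 1 in 3 of 3 libraries. In its 12 coding exons uTOP-seq stayed above 1, at 1.18-fold, in 3 of 3 libraries. The densest long exons had a uTOP-seq coverage of 2.29 ± 0.0478 (SD, n = 3), above their 5hmC coverage of 1.53 on each assay's own scale. The mean log2 ratio of long over short was higher in hmTOP-seq by 0.29 at 1 to 5 CGs per 100 nt. At 5 to 6 and at 6 and above, the hmTOP-seq minus uTOP-seq difference was -0.57 and -0.98. In each of the 3 groups the 6 and 3 libraries did not overlap (two-sided exact permutation, p = 0.0119 each, the smallest possible). Under 1 CG per 100 nt the libraries of the assays overlapped (exact permutation p = 0.333).

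Over all long exons coverage varied little with length beyond 1000 nt. At 500 ng it was 2.67 for 602 exons of up to 1500 nt, 2.72 for 291 of up to 2000 nt, 2.91 for 185 of up to 3000 nt and 2.54 for 147 longer ones. With the density mix held equal the values were 2.72, 2.79, 2.82 and 2.77. Coding-only exons, without that adjustment, varied more, at 3.15, 2.70, 2.85 and 2.43. Over internal exons of all lengths, weighted to the density of long exons, coverage was 1.84 up to 100 nt, 2.17 at 100 to 200 nt, 2.40 at 200 to 500 nt and 2.72 at 500 to 900 nt. Exons just outside and just inside the 1000-nt limit were close in coverage: 230 exons of 900 to 1000 nt had 2.49 ± 0.0742 and 191 of 1000 to 1100 nt had 2.48 ± 0.0535 (SD, n = 2), or 2.70 and 2.55 at the density of long exons. Exons that overlap an end exon or untranslated region stood at 2.62 and coding-only ones at 2.80. In uTOP-seq that order was the other way round, at 1.69 and 1.46.

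Coverage changed close to the splice sites and stayed high along the exon. On the acceptor side of long exons the intron was at 1.22 at 500 to 1000 nt, 1.61 at 100 to 200 nt and 2.17 in the last 25 nt, and the exon at 2.57 in its first 25 nt and 2.86 at 50 to 100 nt. On the donor side the exon stood at 2.98 in its last 25 nt, and the intron at 2.37 in its first 25 nt and 1.42 at 500 to 1000 nt. The rise lay within the last 200 nt of intron before the exon and the first 100 nt after it. Short exons had much the same intron profile, with 2.18 in the last 25 nt before the exon, but stayed between 2.26 and 2.55 inside. Divided into 10 equal parts from the 5' end, long exons had 2.78 in the first part, a low of 2.50 near the middle and 2.91 in the last. In uTOP-seq the same parts ranged only from 1.54 to 1.65.

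**Figure D3:**
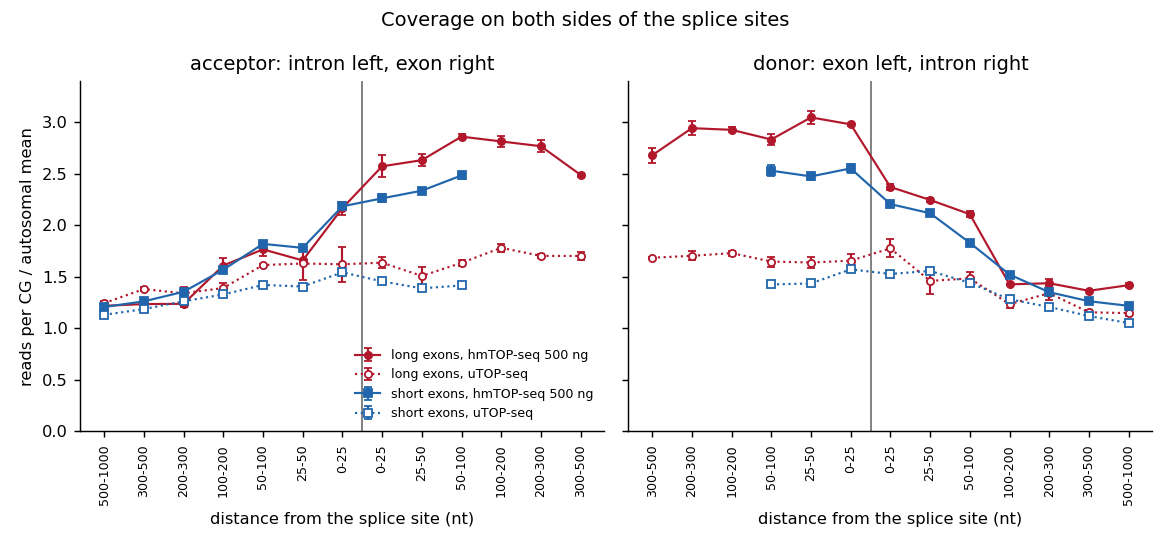
Relative coverage (reads per CG divided by the autosomal mean, vertical axis) by distance from the acceptor (left) and donor (right) splice site in nt, for long and short exons in the 500-ng hmTOP-seq libraries (solid) and uTOP-seq (dotted). Points are means and bars SDs of 2 and 3 replicates; at long exons the 500-ng signal goes from 1.22 in the distant intron to 2.86 at 50 to 100 nt inside the exon.

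The long exons differed widely from each other. Among the 986 with 20 or more CGs, coverage at 500 ng had a median of 2.07, with 10% under 0.444 and 10% over 5.68, and 715 lay above the autosomal mean. These differences recurred between replicates, with Pearson's r across the 986 exons of 0.982 for the 500-ng pair, 0.924 for the 50-ng pair and 0.618 for the 5-ng pair. As a description across exons, which share libraries and base composition, 500-ng coverage had a Spearman correlation of 0.640 with uTOP-seq coverage and of 0.602 with the exon's own flank. It was 0.509 with GC content, 0.439 with CG density and -0.146 with length.

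With only the longest of a gene's long exons counted, the 8 highest exons came from genes of unlike function. Shorter long exons of Mtcl1 and Bahcc1, not counted here, reached 8.67 and 8.26. Slc25a42, whose exon is 1485 nt long and only 20.5% coding, had 551 and 493 reads on 29 CGs at 500 ng, or 12.04 and 10.97 times the autosomal mean. With 50 ng its coverage was 10.2 and 9.06, with 5 ng 6.69 and 6.33, and in uTOP-seq 3.62, 4.21 and 3.33. Zbtb4 reached 11.1 and 10.5, from 646 and 602 reads on 37 CGs, with its flank at 5.43 and 5.81. Smpd3 had 10.6 and 9.43 in the exon and 1.17 and 0.993 in the flank, so that its exon stood 9.26-fold above its flank. The CGs printed for these genes are the best covered in the coding part of their exons, and the windows around them hold 7, 3 and 2 CGs.

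Synpo2, an actin-bundling protein of muscle, had 8.68 and 9.06 against 0.272 and 0.738 in its flank, a 17.6-fold difference that rests on 11 flank reads. Dlc1 stood at 8.27 and 8.62. Adamtsl1, a secreted protein of the extracellular matrix, stood at 8.48 and 7.96, Khnyn at 9.18 and 7.24, and Sync, the intermediate filament protein syncoilin, at 7.87 and 8.42. All 8 exons exceeded 1 in uTOP-seq as well, from 1.29 for Khnyn to 4.02 for Sync, as did 598 of all 986 exons with 20 or more CGs. Unmodified CGs and 5hmC were thus both above average in these exons.

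At the low end stood exons without any read and exons with unmodified CGs. Smok3a, Smok3b, Gm14147 and Gm14151 had 0 reads in each of the 9 labelled and uTOP-seq libraries, which allows up to 3 reads per library. Smok3a and Smok3b belong to a family of sperm motility kinases with near-identical copies, and have exons of 1586 nt with 38 CGs each. Gm14147 and Gm14151 have exons of 1933 nt with 21 CGs each. In all, 9 of the 1224 exons with a CG had no read in any of the 9 libraries.

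Tulp4, a tubby-like protein, had 1 read at 500 ng and 1 in uTOP-seq on 57 CGs, and its 19 flank CGs had 0 reads in all 9 libraries. The flanks of Smok3a, Smok3b, Gm14147 and Gm14151, with 4 to 8 CGs, also had 0. Whether reads can be placed on these exons and flanks was not tested. Hrnr, the epidermal protein hornerin, had 2 reads at 500 ng on 107 CGs and 20, 8 and 11 in uTOP-seq. Znrf1, a ubiquitin ligase, and Kcnn2, a calcium-activated potassium channel, were different. Their exons hold 149 and 118 CGs at 11.2 and 9.26 CGs per 100 nt. Znrf1 had 6 and 1 reads at 500 ng but 358, 300 and 191 in uTOP-seq, or 1.63 ± 0.267 times the autosomal mean (SD, n = 3). Kcnn2 had 6 and 0 reads at 500 ng and 1.83 ± 0.179 in uTOP-seq. Both exons overlap an end exon and an untranslated region of some transcript.

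In the CG-dense group the median was also lower than over all long exons at 500 ng and higher in uTOP-seq, though far less extreme at 500 ng than in Znrf1 and Kcnn2. Of the 62 exons with 6 or more CGs per 100 nt, 41 were the second exon of their transcript and 50 overlapped an end exon or untranslated region. Their median coverage was 0.743 at 500 ng and 2.34 in uTOP-seq, while the medians of all 986 exons were 2.07 and 1.19. At 500 ng 37 of the 62 lay under 1, beside 271 of all 986, and in uTOP-seq 59 lay above 1, beside 598 of all 986. At 500 ng the 62 ranged from 0.0149 to 7.38.

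Each exon was then tested against its own flank in the 500-ng libraries, with edgeR's quasi-likelihood test and Benjamini-Hochberg adjustment over 61324 internal exons. Flanks of neighbouring exons can share CGs, so tests of neighbouring exons are not independent. Exons above their flank made up 36.6% of all exons tested and exons below it 11.6%. Of the 1225 long exons 1021 had enough reads and CGs, and 619 of them (60.6%) were above, 84 (8.23%) below and 318 passed in neither direction. For short exons the shares were 34.7% and 11.6%. The 703 calls at 500 ng, or 68.9% of long exons tested against 48.2% of all exons, stand beside 273 of 979 in the 50-ng libraries (27.9% against 9.37%) and 379 of 1102 over all 6 labelled libraries (34.4% against 11.3%). Long exons hold more reads, with a median of 312 against 127 over all exons tested, and the share called rose with reads. With 40 to 100 reads 37.8% of long and 23.8% of short exons were called above their flank, and with 800 reads or more 79.5% and 60.8%. The median fitted log2 ratio was 1.06 for long exons and 0.54 over all exons, with the same values when the 22 long exons with a side at 0 were set to a floor of 3 reads.

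Exons below their flank outnumbered those above it only at 6 or more CGs per 100 nt, where 12 of 59 tested long exons were above and 35 below. Between 1 and 5 CGs per 100 nt 564 of 871 were above and 39 below, between 5 and 6 it was 22 of 27 and 1, and under 1 it was 21 of 64 and 9. Exons above their flank had a median of 2.67 CGs per 100 nt and a GC content of 54.5%, those below 3.70 and 61.2%, and those in neither group 2.01 and 51.4%. In uTOP-seq the medians of exon and flank were 1.36 and 0.907 for exons above, and 1.58 and 1.77 for exons below.

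**Figure D4:**
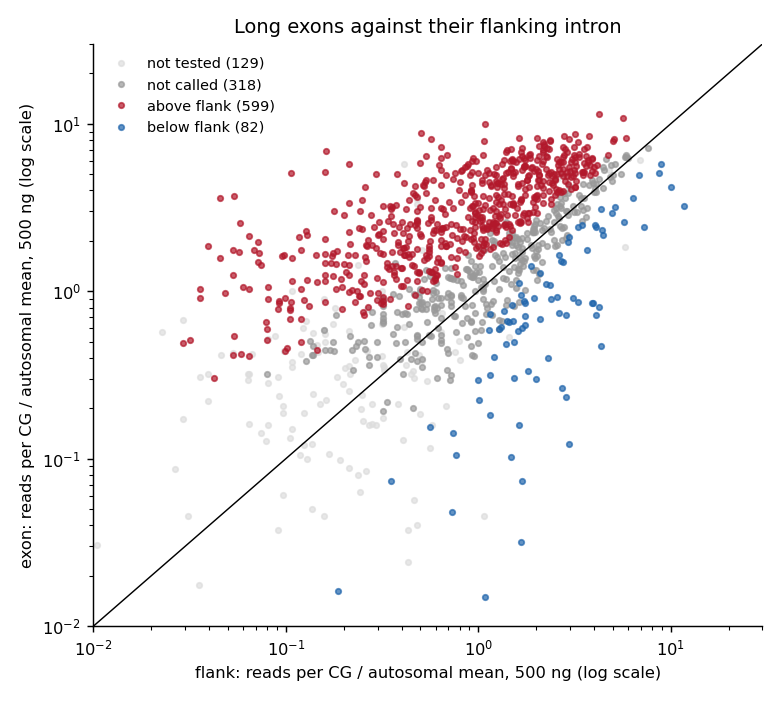
Relative coverage of each long exon (vertical axis) against that of its flank (horizontal axis) at 500 ng, both as reads per CG divided by the autosomal mean on log scales, means of 2 replicates. Colours give the edgeR call, with 599 exons above and 82 below their flank among the 1128 plotted; 97 exons with 0 reads in exon or flank are left out, and the line marks equality.

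The exons with the largest fitted differences above their flank were Ttn, Kansl1, Trip11, Dsp and Xirp2. Each had 0 flank reads in both 500-ng libraries, so their fitted ratios depend on the prior count and only a lower bound can be given. Ratios of exons with few flank reads exceeded these bounds, such as 79.6-fold for Plce1 on 2 flank reads and 47.9-fold for an exon of Pclo on 6, chosen after their values were seen. With the flank at a floor of 3 reads over both libraries, Kansl1, a scaffold of a histone acetyltransferase complex, was at least 13.3-fold higher in the exon, from 137 and 172 reads on 31 CGs. Trip11, a golgin, was at least 11.5-fold higher, and Dsp, the desmosome protein desmoplakin, at least 10.7-fold. Xirp2, an actin-binding protein of muscle, was at least 4.66-fold higher. For the 17106-nt exon of Ttn, with 279 and 239 reads on 406 CGs but only 3 flank CGs, the bound was 1.28-fold. That exon stood at 0.436 and 0.380 times the autosomal mean. The 50-ng libraries gave 0.425 and 0.341, the 5-ng libraries 0.409 and 0.123, and uTOP-seq 0.535, 0.402 and 0.324, so it lay below average in all 9. All 5 were called above their flank by edgeR (Benjamini-Hochberg adjusted p from 6.11e-08 for Kansl1 to 0.0166 for Ttn).

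The largest fitted differences below the flank were those of Lrrd1, Vmn1r87, Znrf1, Garem2 and Dgke. Lrrd1 and Vmn1r87, a vomeronasal receptor, had 0 exon reads at 500 ng on 10 and 7 CGs, and 74 and 53 flank reads. Their rank rests on fits that depend on the prior count, and against the floor their exons were at least 16.4-fold and 11.2-fold lower, less than the ratios of the other 3. In the 50-ng libraries the exon of Lrrd1 had 1 and 10 reads, or 0.0895 and 0.935 against 0.776 and 1.81 in its flank, while that of Vmn1r87 again had 0. Znrf1 was 72.6-fold lower in the exon than in the flank, from 7 and 58 reads summed over both libraries, and its replicates differed, with log2 ratios of -5.63 and -7.72. Garem2, an adaptor of growth factor signalling, was 24.0-fold lower, with 0.180 and 0.0661 in the exon and 3.07 and 2.84 in the flank. Dgke, a diacylglycerol kinase, was 22.9-fold lower, with 0.0867 and 0.0612 against 1.77 and 1.62. The exons of Znrf1, Garem2 and Dgke have 11.2, 11.96 and 8.63 CGs per 100 nt, and their uTOP-seq coverage was 1.63, 1.64 and 2.46. Lrrd1 and Vmn1r87 are CG-poor, with 0.509 and 0.201.

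The other exons of greatest length were low in 5hmC. Muc16, a membrane mucin, has an exon of 11544 nt with 43 CGs and 5 and 12 reads at 500 ng, and 0.525, 0.647 and 0.933 times the mean in uTOP-seq. Fsip2, a protein of the sperm tail, had 5 and 5 reads on 57 CGs over 9659 nt. Stard9, a kinesin of the centrosome, stood at 0.461 and 0.475 over 9837 nt. Cmya5, the muscle protein myospryn, was the exception at 1.13 and 1.22 over 9310 nt. Their flanks hold few CGs, from 3 for Fsip2 to 13 for Cmya5, and Stard9 and Cmya5 were tested and not called, while Muc16 and Fsip2 were not tested.

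By function, 196 of the long exons belong to genes on 7 lists, which together name 257 gene symbols. The 1029 other long exons lie outside the lists. The lists were drawn up from general knowledge, and some of their genes do not do what the list name says. Medians below are over listed exons with 20 or more CGs and stand beside 2.07 for all 986. They are not adjusted for CG density, whose median went from 1.42 CGs per 100 nt for DNA repair to 2.92 for C2H2 zinc finger and homeobox regulators, with 2.56 for all 986. Each list's calls, by edgeR as above, cover all its long exons, also those with fewer than 20 CGs. They stand beside 619 above, 84 below, 318 in neither group and 204 not tested for all long exons.

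Exons of C2H2 zinc finger and homeobox regulators had the highest median of the lists, at 3.93 over 34 exons. Of all 35 exons of the list, 24 were called above their flank, 1 below, 8 in neither group and 2 not tested. Zfhx3, a homeodomain protein with many zinc fingers, has an exon of 5454 nt with 2061 and 1807 reads on 231 CGs, or 5.66 and 5.05, against 2.57 and 2.68 in the flank. Its log2 ratio was 1.02 (edgeR quasi-likelihood, Benjamini-Hochberg adjusted p = 1.29e-09). Hivep2, which binds enhancer motifs, stood at 1.62 and 1.72 against 0.158 and 0.161 in its flank, a 10.5-fold difference on 4 flank reads. Zfp462 was at 1.95 and 1.93 against 1.45 and 1.33. Sall1 and Sall4, zinc finger factors of development, stood near the top of the list with 7.99 and 7.37, and Zfp644 lowest with 0.449; these were chosen after their values were seen.

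Genes with a Zfp symbol hold 43 long exons in 39 genes. Over the 39 of these exons with 20 or more CGs the median was 2.37 at 500 ng, with a range from 0.0739 to 7.80, and 24 of 40 tested exons were above their flank and 3 below, beside 60.6% and 8.23% of all tested long exons. The median of their flanks was 1.39, against 1.004 for all long exons with 20 or more CGs.

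Chromatin and DNA modification genes had a median of 2.39 over 34 exons. Of all 43 exons of the list, 21 were above, 2 below, 14 in neither group and 6 not tested. Rai1, a chromatin protein, has an exon of 5527 nt that reached 8.13 and 7.69, from 2207 and 2048 reads on 172 CGs, against 5.15 and 4.86 in the flank. Ankrd11, a chromatin regulator of neural development, went the other way, with 3.18 and 2.99 in the exon and 3.20 and 5.44 in the flank, where the replicates differ. Its log2 ratio was -0.46 (edgeR quasi-likelihood, Benjamini-Hochberg adjusted p = 0.00856). Kmt2a, a histone H3 lysine methyltransferase, had 1.86 and 1.90 against 1.99 and 3.14 and was not called.

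The TET enzymes, which make 5hmC, have long exons themselves and were chosen for that role after their values were seen. Exons of Tet1 of 1982 and 2203 nt stood at 4.57 and 2.93, with the first called above its flank. Tet2 was at 2.64 and 2.44 over 3206 nt, against 0.272 and 0.830 in its flank, and was called above it. Tet3 was at 1.85 and 2.11 over 2158 nt, against 1.55 and 1.46, and was not called.

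DNA repair genes had a lower median, 1.02 over 13 exons. Of all 16 exons of the list 14 were tested, and 10 of these were above their flank, beside 60.6% of all tested long exons. None was below, 4 were in neither group and 2 were not tested. Their flanks were low, with a median of 0.2504. Bod1l, which protects stalled replication forks, had 0.697 and 0.719 in an exon of 5953 nt and 0 flank reads on 7 CGs, so that the exon was at least 5.17-fold higher. Msh6, of the mismatch repair complex, had 2.44 and 2.09 against 2.77 and 1.98 in the flank and was not called. Rev3l, the catalytic subunit of DNA polymerase zeta, stood at 0.412 and 0.355 and was not called either, with 2 flank reads. Brca1 and Brca2, chosen after their values were seen, had 0.921 and 0.598 and differed in the call, which was above for Brca2 and neither for Brca1.

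The list for mitosis, kinetochore and centrosome had a median of 0.925 over 19 exons. Of all its 27 exons, 11 were above, 3 below, 9 in neither group and 4 not tested. Its exons with the most CGs belong to Golgb1 and Golga4, which encode golgins of the Golgi membrane rather than spindle proteins, and to Numa1, which organises spindle poles. Golgb1 stood at 0.833 and 0.906 against 0.390 and 0.248 in its flank. Golga4 stood at 2.59 and 2.18 against 1.17 and 1.19. Numa1 stood at 3.30 and 3.46 against 1.66 and 2.66. All 3 were called above their flank, with log2 ratios of 1.44, 1.01 and 0.65.

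Giant cytoskeletal and muscle proteins had a median of 1.73 over 32 exons. Of all 34 exons of the list, 17 were above, 3 below, 8 in neither group and 6 not tested. Ank3 holds 250 CGs in 7674 nt and had 1.53 and 1.63 against 2.25 and 1.68 in the flank, and was not called. Plec, or plectin, a linker of intermediate filaments, was called below its flank. Its exon of 3381 nt had 5.37 and 4.76, from 2042 and 1776 reads, against 8.43 and 8.89 in the flank, a log2 ratio of -0.78 (edgeR quasi-likelihood, Benjamini-Hochberg adjusted p = 4.52e-08). The 7 exons of Ttn with 20 or more CGs ranged from 0.234 to 1.84.

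Presynaptic scaffold and axonal proteins had a median of 0.940 over 17 exons. Of all 18 exons of the list, 8 were above, none below, 7 in neither group and 3 not tested. Bsn had 5.62 and 5.41 in an exon of 6642 nt, from 2386 and 2253 reads on 269 CGs, against 1.67 and 2.11 in the flank. Its other long exon was the highest of the list at 5.74, and an exon of Pclo reached 5.11. The 50-ng libraries gave for the first Bsn exon 5.80 and 4.57, the 5-ng libraries 3.97 and 3.35, and uTOP-seq 2.17, 2.07 and 2.11. The log2 ratio at 500 ng was 1.54 (edgeR quasi-likelihood, Benjamini-Hochberg adjusted p = 2.31e-11). Shank1 and Shank3, which are scaffolds of the postsynaptic density, had 2.60 and 2.48 and 2.62 and 2.58 in the replicates. Neither was called, with flanks at 2.06 and 2.12 and at 2.66 and 2.31. In uTOP-seq the exons of Shank1 and Shank3 stood at 2.91 and 2.86.

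Secreted and extracellular matrix proteins had the lowest median, 0.846 over 18 exons. Of all 23 exons of the list, 10 were above, none below, 9 in neither group and 4 not tested. Fat1, a giant atypical cadherin, had 2.87 and 2.997 in an exon of 4068 nt against 1.83 and 1.61 in the flank, and was called above it. Tnxb, or tenascin-X, had 2.64 and 2.26 against 3.64 and 1.69, and Muc5b, a gel-forming mucin, 0.560 and 0.257 against 1.52 and 0.387. Neither Tnxb nor Muc5b was called.

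**Figure D5:**
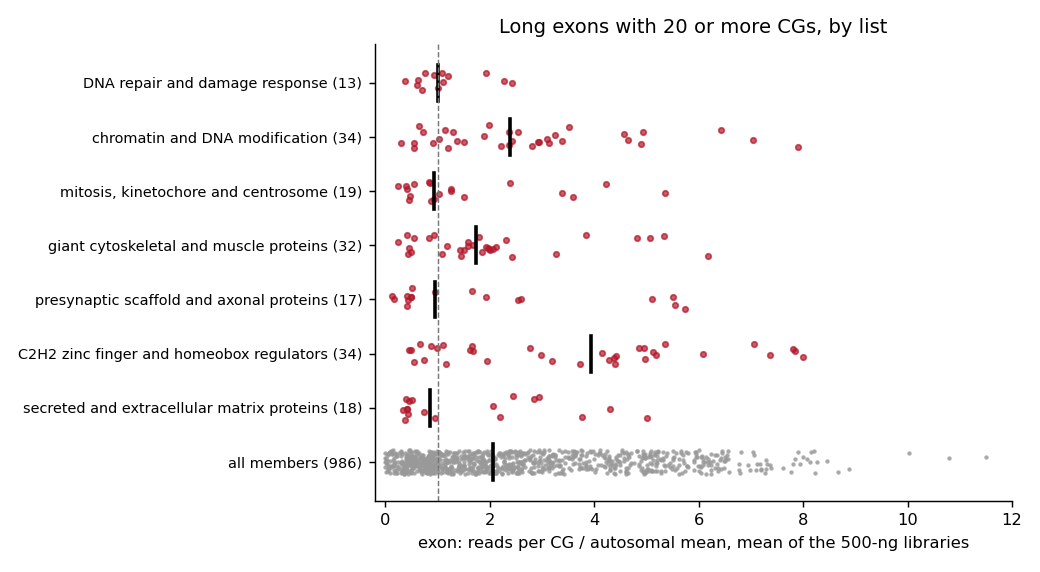
Relative coverage at 500 ng (reads per CG divided by the autosomal mean, horizontal axis, mean of 2 replicates) of long exons with 20 or more CGs, by gene list, with the number of exons in brackets; points are exons, black bars medians, and the dashed line marks 1. Medians run from 0.846 for secreted and extracellular matrix proteins to 3.93 for C2H2 zinc finger and homeobox regulators, and exons of every list spread on both sides of 1.

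Exons of the same gene could differ. Of 60 genes with at least 2 long exons of 20 or more CGs, 28 had exons that differed over 2-fold in 500-ng coverage, and the median ratio of highest to lowest was 1.90. The following were chosen after their values were seen. Kmt2d, a histone H3 lysine methyltransferase, has 6 such exons from 2.36 to 6.42. Its exon 49 had 6.77 and 6.07 against 0.423 and 0.646 in the flank, while its exon 32 had 2.50 and 2.34 against 8.08 and 6.37. Pclo, or piccolo, a relative of bassoon, ranged from 0.411 to 5.11. Soga3 had 0.05005 in its second exon and 4.91 in its sixth, with 7.48 and 6.46 CGs per 100 nt.

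Between DNA inputs, edgeR called no internal exon as different in the fits with all libraries. With edgeR's quasi-likelihood test and Benjamini-Hochberg adjustment, 0 of 47721 exons (0%) passed between 50 and 500 ng, and 0 of 43422 (0%) between 5 and 500 ng. At an unadjusted p under 0.05 there were 2452 and 5117 exons, of which 68 of 1072 and 123 of 1036 were long. DESeq2 called 0 exons at 50 ng but 3646 at 5 ng, 3141 of them lower at 5 ng; 57 of 1036 long exons were among these 3646 of 43422. The median log2 change of long exons was 0.01 at 50 ng and -0.28 at 5 ng, beside 0.02 and -0.23 for all exons tested. Both comparisons use the same 500-ng libraries. The counts of 0 did not hold in fits with a single low-input library. Exons passed when either library of the 50-ng or the 5-ng pair was left out. The lone library was then assumed to vary like the 500-ng pair, so no share of long exons is drawn from these fits. These fits change both the libraries and the estimate of spread, and the part of each was not tested.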

How the data were processed

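The authors aligned the reads and deposited read counts per CG without normalisation, 12 columns for hmTOP-seq and 3 for uTOP-seq, with mm10 named in the submitters' processing notes. Per the study's methods, hmTOP-seq alignments had a mapping quality of at least 30 and raw reads a length of at least 80 nt, and of reads with equal start and length only 1 was kept. The deposited positions count from 0 and were moved by 1 base, after which every autosomal position lay on a reference CG. No value column was left without a sample. Libraries were grouped by their labels. The libraries marked K were read as the controls without BGT, as the study's library list names them.

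From these counts, reads and CGs were summed per exon and flank. Flanks ended at the next exon, and flank CGs in any annotated exon were left out. Short exons were weighted to the CG densities of long exons in bins of 1 CG per 100 nt. Pooled log2 ratios were tested over libraries with exact permutation tests. Exons with at least 3 CGs and 40 reads entered edgeR's exon against flank fit, in which counts are offset by the number of CGs; the fits between inputs used TMM normalisation and the same read minimum. Alternatives included DESeq2, other matchings, other averages and each library left out. The steps were tested on simulated data.

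Genes are named by a fixed rule: the 5 longest exons; of exons with 20 or more CGs the 8 with the highest and the 8 with the lowest 500-ng coverage; the 5 largest differences in each direction among called exons; and in each list the 3 exons with the most CGs. Of several long exons of a gene the longest counts. Members and lists were chosen with earlier results of these data known. Tools were Python 3.11.15, numpy 2.4.6, pandas 2.3.3, scipy 1.17.1, matplotlib 3.10.9, R 4.3.3, edgeR 4.0.16 and DESeq2 1.42.0.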

Additional observations from a re-analysis of the deposited data

Results flagged for a closer look

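Several contrasts differed between the assays by an exact permutation test of the difference over the 6 labelled hmTOP-seq and 3 uTOP-seq libraries (p = 0.0119, the smallest possible, for each). The log2 ratio of exon over flank at long exons was higher in hmTOP-seq by 0.488. The log2 ratio of long over short exons at equal CG density was higher by 0.114. Split by CG density, the hmTOP-seq minus uTOP-seq difference in long over short exons was 0.288 at 1 to 5 CGs per 100 nt, -0.574 at 5 to 6 and -0.979 at 6 and above. The assays thus differed in opposite directions at 1 to 5 CGs per 100 nt and at 5 or more, while under 1 no difference was found (exact permutation p = 0.333). The groups at 5 to 6 and at 6 and above hold 28 and 62 long exons.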

How the results depend on the processing

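Of 101 recomputed values, 80 kept their direction and their side of the threshold (or their size), 2 reversed and 19 changed otherwise. Taken as a median over exons, long over short exons was -0.93 and the flank-to-exon rise of long minus short exons -0.84; only dense exons enter these medians. With short exons of 3 or more CGs admitted, an alternative chosen after the data were seen, long over short was 0.88 and the difference in rise 0.67. In the 50-ng libraries exon over flank was 0.77, long over short 0.28, their difference in rise 0.19 and relative coverage of long exons 2.48.

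The difference in rise was 0.0783 with CGs matched on the 180-bp window (exact permutation p = 0.1875), 0.11 without matching (p = 0.0625) and 0.14 against short exons of the same genes (p = 0.09375); the cause was not tested. Relative coverage was 1.75 as a median over exons, 2.60 with counts limited to 20 reads, 1.81 as the share of CGs with a read and 2.80 in coding exons only. Long exons called against their flank numbered 703 of 1021 at 500 ng, 273 of 979 at 50 ng and 379 of 1102 over all 6 libraries, or 68.9%, 27.9% and 34.4% beside 48.2%, 9.37% and 11.3% of all exons tested.

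Leaving out a 500-ng library gave 0.90 to 0.93 for exon over flank, 0.31 to 0.32 for long over short, 0.27 to 0.27 for the difference in rise, and 2.66 to 2.73 for coverage. With a single 500-ng library, and the 50-ng libraries added to estimate the spread, smaller shares of long exons and of all exons were called against their flank. The assay difference ranged from 0.46 to 0.51 with any library left out. Exons called between inputs ranged from 0 to 3967 for 50 ng and from 0 to 25874 for 5 ng, the lone library being assumed to vary like the other group. DESeq2 called 3646 at 5 ng. With the replicate number as a block, 0 exons were called in either comparison; same-numbered replicates did not deviate together (correlation 0.0142 and 0.0118), so the numbers do not pair them. Without exons holding an annotated intron, or without those under 0.05 of the uTOP-seq mean, all 5 pooled results kept their direction.

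At 5 ng about 14.4% of long-exon CGs had a read, so single CGs and small exons are poorly measured there. Flanks of long exons are CG-poor, and 11 exons had none. The control libraries hold too few reads to describe single exons. Each p-value measures the spread between technical repeats of 1 cell line.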
